A study of Rattus norvegicus with 10 samples.

Results

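Interferon-stimulated effector genes encode the proteins with which a cell answers interferon: sensors of foreign RNA, enzymes that degrade or edit RNA, factors that hold viruses at entry or budding, and the conjugation system of the ubiquitin-like protein ISG15. A set of 48 such genes was chosen by symbol, leaving out chemokines, IRF and STAT transcription factors and MHC genes. Of these, 43 were among the 9003 genes measured in splenic M2 macrophages of rats, and 42 of the 43 had at least 1 CPM in at least 2 of the 10 libraries. CPM is here the TMM-normalized count of a gene, scaled to the size of its library. The exception was Ifit1, which lay between 0 and 1.03 CPM. Ddx60, Samd9, Herc6, Ifi44l and Xaf1 were not analysed here.

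All macrophages came from WKY/NCrj rats and were isolated from the spleen by flow cytometry. The control group held 2 libraries from rats under physiological conditions, and the GN group 2 libraries from rats with glomerulonephritis that received no adipose-derived mesenchymal stem cells (ASCs). Nephritis was induced with TF78, a mouse monoclonal antibody against the glomerular basement membrane. The EV+ and EV- groups held 3 libraries each from nephritic rats that received human ASCs labeled with DiD, a dye of cell membranes. EV+ macrophages carried DiD, taken as a sign of transferred extracellular vesicles, and EV- macrophages did not. EV- cells are thus from treated rats too. GN differs from both groups in treatment, and from EV+ also in whether the cells carried dye. Both treated groups are also parts of a population split by dye, whereas GN cells, from rats without labeled ASCs, were not split. The methods give 2 or 3 biological replicates a group, but neither how many rats gave a library nor whether an EV+ and an EV- library of the same number came from the same rats. Where libraries came from the same rats, p-values measure only the spread between these samples.

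Type I interferons bind a receptor on the cell surface whose kinases activate a transcription factor complex containing IRF9. This complex binds the interferon-stimulated response element (ISRE) before the start of target genes, whereas the response to interferon gamma runs through the gamma-activated site (GAS). In macrophages a low, tonic interferon signal keeps many of these genes transcribed without infection.

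The ISRE core was searched as GAAANNGAAA and the GAS as TTCNNNGAA, on both strands, in the RefSeq promoters of build GRCr8, which run from 250 bases before to 50 bases after the start of a gene. Promoters were found for 31 of the 43 genes. Of these, 21 (67.7%) held the ISRE core, against 3.92% of all 33469 promoters and 3.13% of 6970 promoters of genes in the expression table. The GAS letters were in 9 of the 31 (29.0%), against 8.87% and 6.66%. The letters of 2 ISRE cores overlapped in Oas1a, Oas1b, Bst2 and Trim21, so that these genes hold a longer run of the element. The 250 bases before the start are given for the 4 genes with the ISRE core whose levels in GN lay furthest under control (Ifit3, Oas1b, Oas1a and Rsad2) and for the gene with the core that lay furthest above it (Gbp4). Each is written 5′ to 3′ on the strand of the gene, and capitals mark the ISRE core or its reverse complement, TTTCNNTTTC.
Ifit3, chr1:241527076-241527325, plus strand: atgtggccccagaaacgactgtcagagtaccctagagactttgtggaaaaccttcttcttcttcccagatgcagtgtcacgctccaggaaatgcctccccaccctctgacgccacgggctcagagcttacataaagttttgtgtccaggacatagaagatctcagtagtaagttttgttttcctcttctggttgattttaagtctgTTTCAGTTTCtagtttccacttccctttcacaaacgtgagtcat
Oas1b, chr12:41395853-41396102, minus strand: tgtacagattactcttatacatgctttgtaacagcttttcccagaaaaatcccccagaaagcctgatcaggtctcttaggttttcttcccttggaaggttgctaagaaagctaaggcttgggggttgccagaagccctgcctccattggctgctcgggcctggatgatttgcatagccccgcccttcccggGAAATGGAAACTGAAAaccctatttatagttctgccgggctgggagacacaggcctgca
Oas1a, chr12:41330216-41330465, plus strand: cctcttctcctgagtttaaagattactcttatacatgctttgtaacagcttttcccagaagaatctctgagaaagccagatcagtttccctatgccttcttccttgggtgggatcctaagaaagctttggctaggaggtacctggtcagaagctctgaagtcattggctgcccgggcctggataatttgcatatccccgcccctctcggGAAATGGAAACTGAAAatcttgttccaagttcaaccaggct
Rsad2, chr6:48788121-48788370, minus strand: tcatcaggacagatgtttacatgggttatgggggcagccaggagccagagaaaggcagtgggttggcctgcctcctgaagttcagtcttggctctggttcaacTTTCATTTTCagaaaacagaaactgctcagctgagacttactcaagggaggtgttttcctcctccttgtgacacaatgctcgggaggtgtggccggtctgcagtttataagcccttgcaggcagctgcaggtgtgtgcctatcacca
Gbp4, chr2:233978236-233978485, plus strand: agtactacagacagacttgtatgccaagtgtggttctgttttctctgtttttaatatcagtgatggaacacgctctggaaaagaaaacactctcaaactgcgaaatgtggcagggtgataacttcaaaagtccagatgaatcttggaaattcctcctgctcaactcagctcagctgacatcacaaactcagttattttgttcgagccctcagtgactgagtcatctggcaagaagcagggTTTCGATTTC
The first base of the core stood 44 bases before the start in Ifit3, 59 and 53 in Oas1b, 41 and 35 in Oas1a, 147 in Rsad2 and 10 in Gbp4. Oas1a and Oas1b lie close together on chromosome 12 and carry the same 16 capitals, and reads of such close paralogs may have been assigned uncertainly. A match gives the letters of the element, not a bound site.

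**Figure D1:**
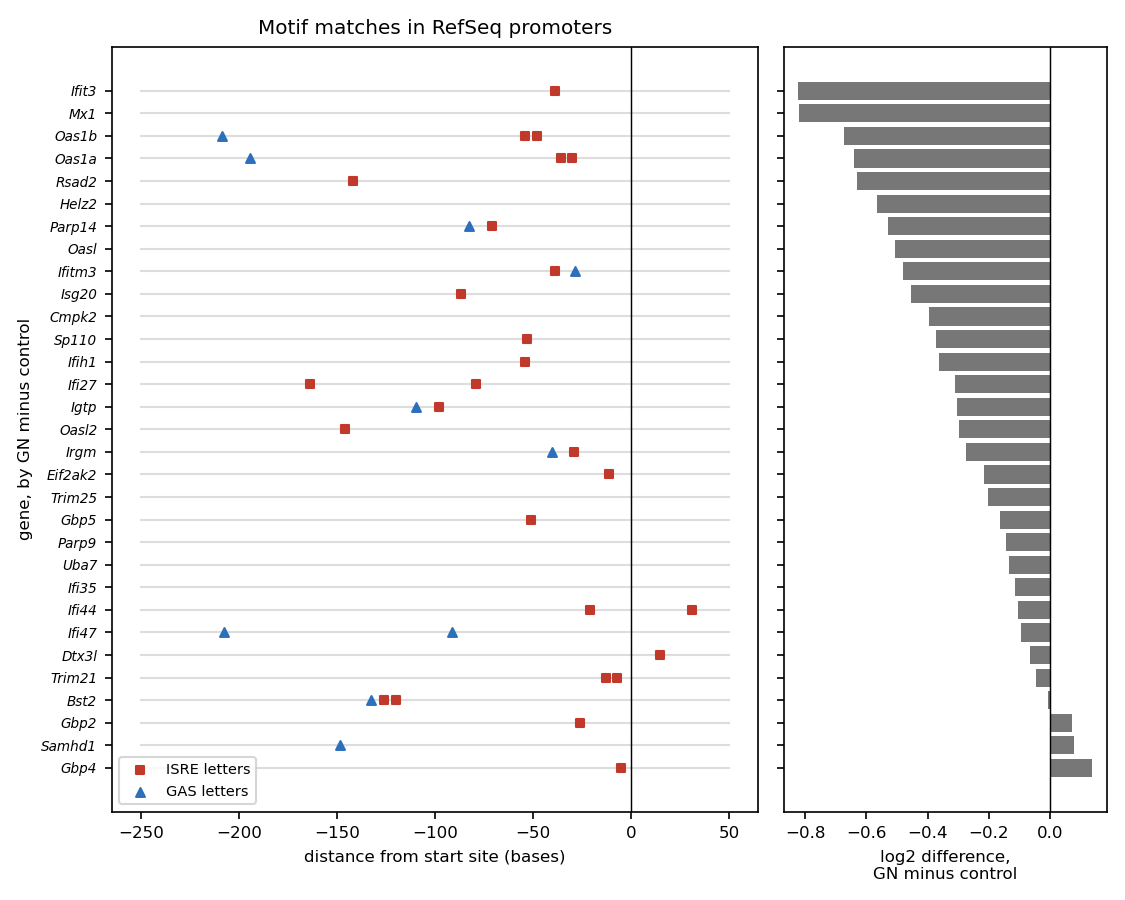
Left, positions of the ISRE core (squares) and GAS letters (triangles) in the promoters of 31 genes, in bases from the start site (vertical line). Right, the difference of each gene on the log2 scale between GN and control, by which the genes are ordered. Genes with the core lie at both ends of the order, from Ifit3 (-0.82) to Gbp4 (0.14).

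Between 19270515 and 26617093 reads of a library fell on the genes of the table, so that 3 reads, the detection floor, stood for 0.113 to 0.153 CPM, counting error only. The macrophage genes Csf1r (5800 to 8155 CPM), Lyz2 (15325 to 20176 CPM) and Cd68 (1163 to 1466 CPM) were high in every library. Cd163 and Mrc1, often used as M2 markers, were at 0 to 1.81 CPM each and thus nearly absent. The summed level of 20 NK and T cell genes was 374 to 515 CPM in 9 libraries and 1365 CPM in EV- replicate 1, and Cd8a and Klrk1 made up most of it in the 9. In 10 of the 20, cytotoxic genes among them, all 3 EV- libraries lay above the 7 others, against 1.08% of all genes. Prf1, which encodes perforin, was at 335, 51.4 and 24.5 CPM in EV- and at most 18.4 in the other 7. In bulk RNA, fewer cells of a type and less RNA per cell cannot be told apart.

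The first comparison asks what nephritis did to these genes. In GN, 40 of the 43 genes had a lower mean than in control, against 50.1% of all genes, and the median difference was -0.31 on the log2 scale of CPM plus 1. Single genes ranged from -1.34 for Ifi27l2b to 0.14 for Gbp4. By limma's test with Benjamini-Hochberg adjustment over all 9003 genes, 1 gene, Ifi27l2b, fell at an FDR under 0.1, where 1.75% of all genes were called and 0.822% were called lower. The quasi-likelihood test of edgeR called 1 of the 43 genes, its likelihood-ratio test 8, DESeq2 7 and limma with the replicate number as an added factor (a block) 15, all lower. Over all 9003 genes the same tests called 147, 292, 294 and 205 in this order. The count thus depended on the test. The calls and adjusted p-values of single genes given here are those of limma without the block. At an unadjusted p under 0.05, 18 genes were lower and 0 were higher, against 4.92% of all genes lower and 5.44% higher. The median over all genes lay between -0.01 and 0.01 in each of the 6 comparisons. In 24 genes, Ifit1 near the detection floor among them, both GN libraries lay under both control libraries, against 22.0% of all genes. In 0 genes they lay above them, against 21.9%.

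Ifi27l2b belongs to a family of small interferon-induced membrane proteins. Its level was 83.7 and 55.8 CPM in the control libraries, 31.3 and 22.4 in GN, 47.3, 19.6 and 31.1 in EV+ and 42.8, 26.5 and 35.5 in EV-. All 8 libraries of nephritic rats lay under both control libraries. The difference was -1.34 ± 0.32 (SE) for GN, with an adjusted p of 0.0743, and -1.13 ± 0.293 for EV+, with an adjusted p of 0.0674 (limma). For EV- it was -0.98 ± 0.293, with an adjusted p of 0.132, which did not pass. The related Ifi27 lay at 403 and 372 CPM in control, 350.3 and 278 in GN, 405, 257 and 372 in EV+ and 375, 277 and 356 in EV-. Its groups overlapped except for GN and control, and the difference of GN, -0.31, did not pass the test.

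The 5 oligoadenylate synthetases had the lowest median difference of the 7 role groups, -0.64. These enzymes make the second messenger that activates RNase L, and the OAS-like proteins are their relatives. All 5 had both GN libraries under both control libraries. None was called by limma, whereas Oas2 was by the likelihood-ratio test and DESeq2, and all 5 were with the block. Oas2 was at 27.5 and 22.7 CPM in control, 14.8 and 12.2 in GN, 15.9, 12.6 and 18.7 in EV+ and 17.0, 7.85 and 12.4 in EV-, with no overlap between control and any other group. Its difference in GN was -0.85 ± 0.272 with an adjusted p of 0.22 (limma). Oasl was at 674 and 533 CPM in control, 486 and 366 in GN, 549, 442 and 495 in EV+ and 469, 411 and 472 in EV-. Only the EV+ libraries overlapped control, and the GN difference of -0.51 ± 0.142 did not pass (adjusted p = 0.137, limma). Oas1a did not pass limma either, at a control mean of 145 ± 43.7 CPM (SD, n = 2) and a GN mean of 91.7 ± 18.1 (n = 2), nor did Oas1b at 109 ± 23.6 and 67.4 ± 10.1. Oas1a, Oas1b and Oasl2 had GN differences of -0.64, -0.67 and -0.30.

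The 7 genes grouped under virus entry, trafficking or budding all had lower means in GN, with a median of -0.48 and no overlap in 5 of them. The group is a loose one that also took in Rsad2, Cmpk2 and Rtp4. Its median was the difference of Ifitm3, which lay at only 0.56 to 3.04 CPM and overlapped between GN and control. Mx2, a dynamin-like antiviral GTPase, was at 682 and 453 CPM in control, 334 and 235 in GN, 454, 243 and 344 in EV+ and 372, 225 and 304 in EV-. Every GN and EV- library lay under both control libraries. The GN difference was -0.99 ± 0.274, with an adjusted p of 0.134 (limma). Its relative Mx1 was at 739 and 455 CPM in control, 391 and 275 in GN, 544, 326 and 381 in EV+ and 473, 287 and 344 in EV-, and differed by -0.82 ± 0.267 in GN without passing (adjusted p = 0.232, limma). In both genes, replicate 1 was the highest library of each group. Rsad2, whose product viperin makes a chain-terminating nucleotide, was at 77.1 and 42.9 CPM in control, 38.3 and 35.4 in GN, 41.8, 33.2 and 44.7 in EV+ and 34.2, 27.9 and 35.1 in EV-. The control libraries were far apart in this gene, and the GN difference was -0.63 ± 0.219 (adjusted p = 0.279, limma). Cmpk2, a nucleotide kinase that works beside viperin, was at 197 and 132 CPM in control and 132 and 114 in GN, so that the higher GN library lay just under the lower control library. Rtp4, which binds replicating viral complexes, was at 296 and 237 CPM in control and 208 and 177 in GN. Bst2, or tetherin, which holds budding virus at the membrane, differed by -0.01 only.

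Among 5 genes whose products bind or degrade RNA or limit nucleotides, the median was -0.39 and 4 had non-overlapping lower levels in GN. The median was the difference of Ifit1, which had 2 and 1 reads in the GN libraries, under the detection floor, and 4 and 16 in control. Ifit2 was apart only by 477.0 CPM in the lower control library against 475.1 CPM in the higher GN library. Ifit3, of the family that recognizes foreign RNA ends and blocks translation, was at 1288 and 806 CPM in control, 682 and 486 in GN, 879, 639.8 and 748 in EV+ and 909, 608 and 734 in EV-. GN lay under control without overlap, with a difference of -0.82 ± 0.222 (adjusted p = 0.12, limma). For Ifit2 of the same family the control mean was 593 ± 164 CPM (SD, n = 2), against 459 ± 22.9 for the 2 GN libraries, 502 ± 56.3 for the 3 EV+ libraries and 492 ± 57.0 for the 3 EV- libraries. Samhd1, which depletes the nucleotides that reverse transcription needs, went the other way at 1426 and 1220.2 CPM in control, 1464 and 1325 in GN, 1595, 1607 and 1502 in EV+ and 1523, 1548 and 1509 in EV-. The 6 EV+ and EV- libraries all lay above the control and GN libraries. In the fit of all libraries by group none of its differences was called, and the EV+ difference from control was 0.25 ± 0.0784 (adjusted p = 0.138, limma).

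The remaining role groups moved less as a whole. The 6 RNA sensors and editors had a median of -0.18 in GN, the 8 genes of ISG15, ubiquitin and ADP-ribose conjugation -0.17 and the 6 interferon-inducible GTPases -0.13. Within the conjugation group, Isg15 itself, its protease Usp18 and Parp14 had GN differences of -0.78, -0.61 and -0.53, without overlap, and the other 5 lay between -0.20 and -0.04. The control mean of Isg15 was 167 ± 56.8 CPM (SD, n = 2), that of GN 94.1 ± 10.6 (n = 2), that of EV+ 105 ± 30.7 (n = 3) and that of EV- 99.0 ± 27.2 (n = 3). Usp18 had 168 ± 47.3, 108 ± 13.0, 118 ± 31.8 and 102 ± 17.1 CPM in the same order. The GTPases Gbp2 and Gbp4 and Samhd1 were the 3 genes with a higher mean in GN, and none of them passed. Gbp2, which assembles on vacuoles and bacteria in the cytosol, was at 605 and 477 CPM in control, 578 and 552 in GN, 663, 602 and 629 in EV+ and 629, 556 and 567 in EV-. Dhx58, the regulatory RIG-I-like receptor LGP2, was at 212 and 149 CPM in control, 192 and 163 in GN, 187, 147 and 174 in EV+ and 175, 134 and 165 in EV-. Neither gene separated control from GN. Among the other nucleic acid sensors the GN differences were -0.10 for Ddx58, which encodes RIG-I, -0.36 for Ifih1, which encodes MDA5, and -0.21 for Eif2ak2, the kinase PKR that stops translation. Adar, which edits adenosines in RNA, differed by -0.15, and Zbp1, a sensor of Z-form nucleic acids, by -0.31. In the group of other genes the median was -0.34, and Helz2, a helicase and coactivator, was at 79.4 and 64.0 CPM in control, 48.5 and 47.1 in GN, 50.6, 50.6 and 59.6 in EV+ and 53.8, 41.2 and 54.4 in EV-. Control lay above all 8 other libraries in Helz2, with a GN difference of -0.57 ± 0.15 (adjusted p = 0.109, limma).

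**Figure D2:**
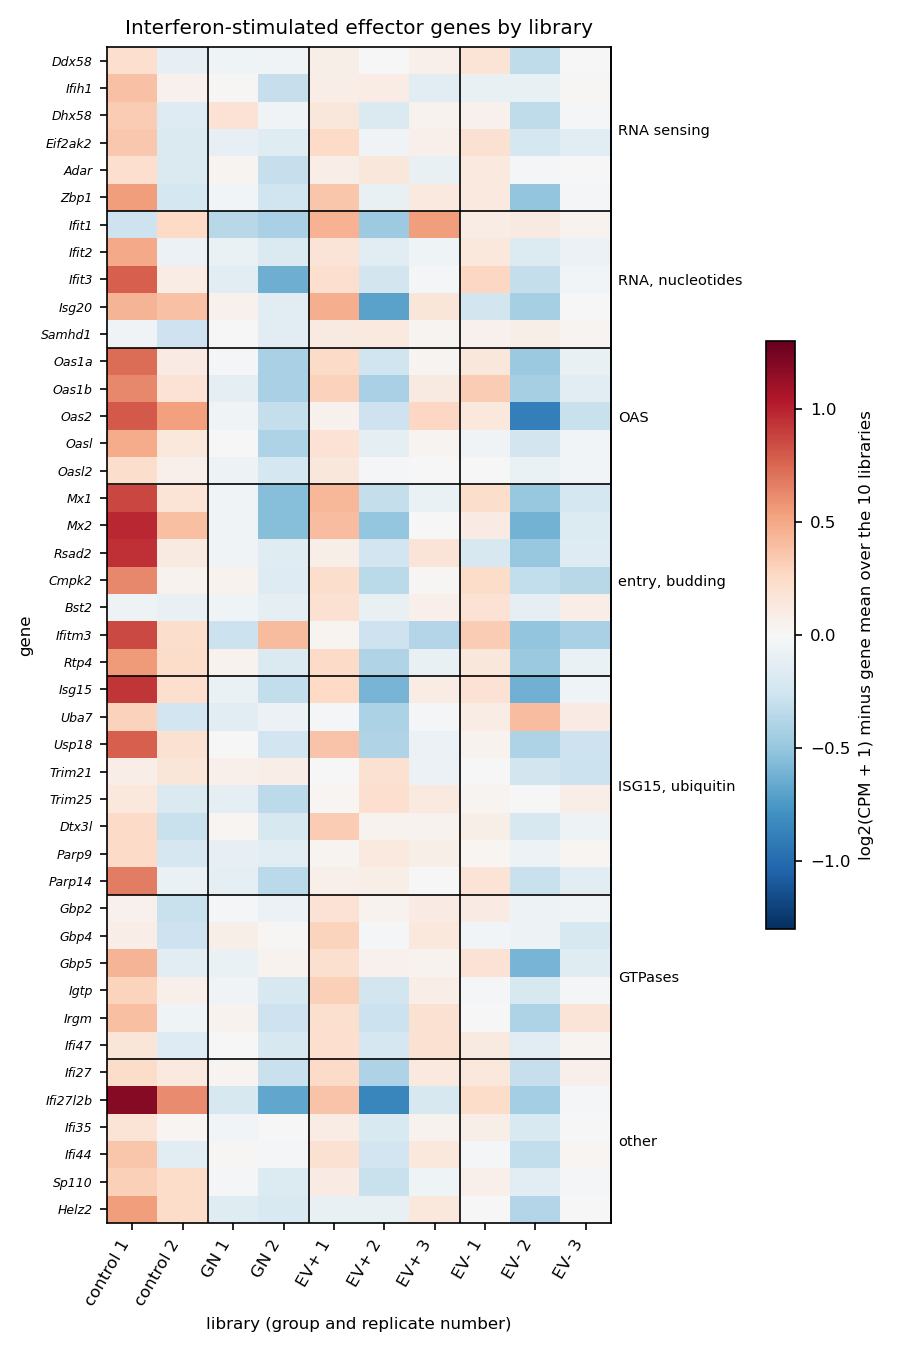
Level of the 43 genes (rows, by role) in the 10 libraries (columns), as the log2 of CPM plus 1 minus the mean of the gene over all libraries. Control replicate 1 holds the highest level of 30 genes, and EV- replicate 2 the lowest of 19.

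**Figure D3:**
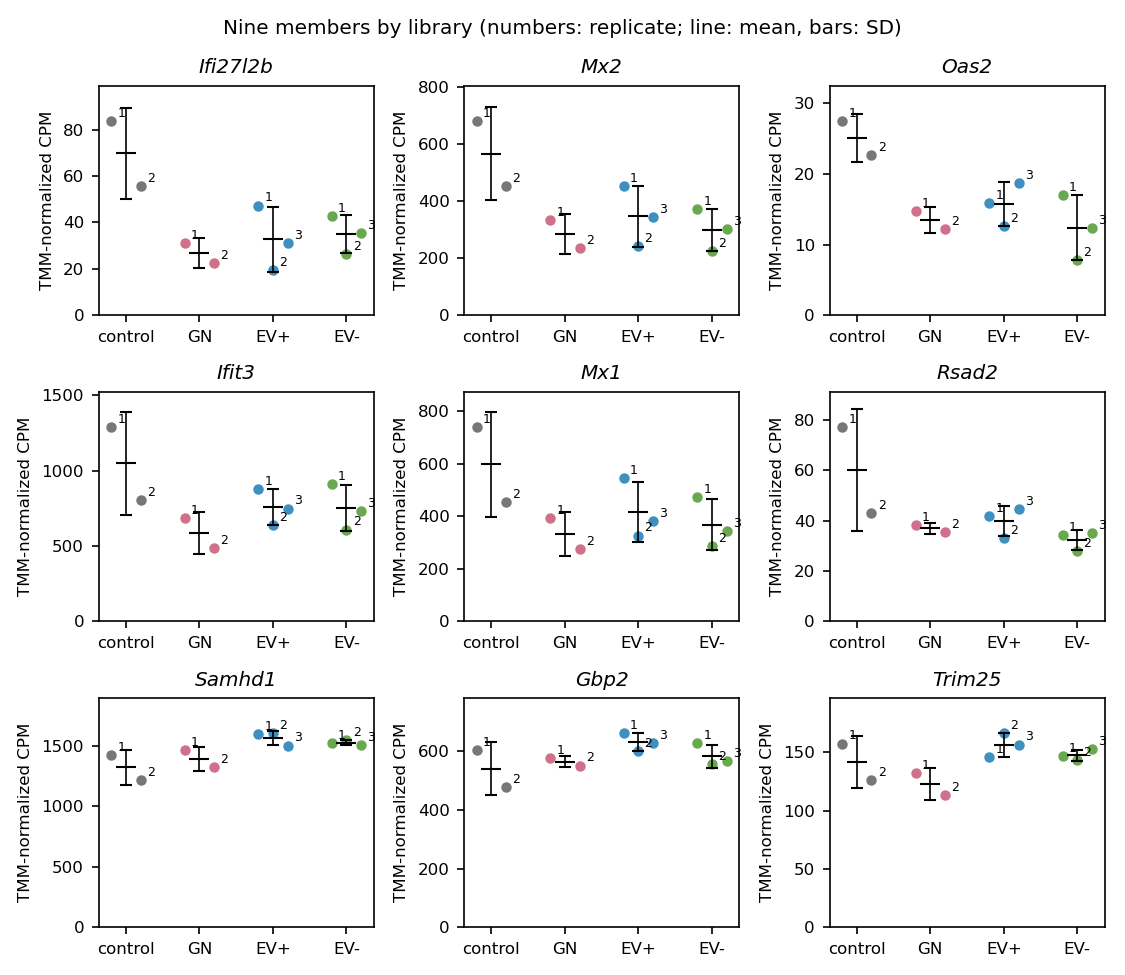
Levels of 9 genes in TMM-normalized CPM by group, with a numbered point for each library, the group mean (line) and SD (bars). Ifi27l2b, Mx2, Oas2, Ifit3, Mx1 and Rsad2 had their highest library in control replicate 1, whereas Samhd1, Gbp2 and Trim25 had theirs in EV+.

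Of the 21 genes with the ISRE core, 19 had lower means in GN than in control, with a median of -0.30, and of the 10 matched genes without it, 9 did, with a median of -0.17. Genes without a matched promoter are in neither group. They include Isg15, Usp18 and the 3 genes with the largest GN differences, Ifi27l2b, Mx2 and Oas2. In EV- against the same controls, 19 of the 21 (median -0.27) and 6 of the 10 (median -0.08) had lower means, and in EV+ 16 (median -0.13) and 6 (median -0.15). Of all genes with a promoter, 59.2% with the core and 49.7% without it had lower means in GN, 63.8% and 47.4% in EV-, and 58.3% and 49.1% in EV+. The difference between genes with and without the core was not tested, and the genes were not split by the GAS letters. Mx1, Oasl and Helz2 were among the 10 without the core.

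The comparison of nephritis with control rested on few libraries. Without control replicate 1 the median was -0.15, and without control replicate 2 it was -0.48. The call of Ifi27l2b was lost without control replicate 1, control replicate 2, GN replicate 1, GN replicate 2 or EV+ replicate 3. The number of genes called was 0 without 4 of these 5 libraries, and 4 other genes were called without control replicate 2. It was 2 without EV+ replicate 1, 6 without EV+ replicate 2 and 5 without EV- replicate 2. A further list of 13 heat shock and immediate early genes, which rise on tissue dissociation, was also lower in GN than in control, but unlike most of the 43 genes it lay lower again in EV+ and EV- than in GN. Its summed level was 9617 to 11074 CPM in control, 7132 to 7227 in GN, 4486 to 5097 in EV+ and 4445 to 6427 in EV-. Its part in the result was not tested.

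The next comparisons set both treated populations against the same 2 control libraries, and so are not independent of the first. In EV+, 32 of 43 genes had lower means than control (50.0% of all genes did), with a median of -0.17, and Ifi27l2b alone was called by limma (3.63% of all genes). The EV+ libraries lay under control without overlap in 5 genes (15.6% of all genes) and above it in 1, Samhd1 (14.9%). In EV-, 35 genes had lower means (48.6% of all genes), with a median of -0.27, and 4 were called by limma, all lower (2.84% of all genes were called, 1.56% lower). In 15 genes the EV- libraries lay under control without overlap (14.1% of all genes).

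The 4 genes that fell in EV- were Oas2, Rsad2, Mx2 and Helz2. Oas2 fell by 1.01 ± 0.249 (adjusted p = 0.0619, limma). Mx2 fell by 0.92 ± 0.25 (adjusted p = 0.0937, limma), Rsad2 by 0.82 ± 0.2 (adjusted p = 0.0619, limma) and Helz2 by 0.52 ± 0.137 (adjusted p = 0.0811, limma). In EV+ the same genes differed from control by -0.65, -0.72, -0.53 and -0.41 and did not pass limma, but all 4 were called there with the block. None of these genes was called between EV+ and EV- by limma, with or without the block. Each of the 4 genes, in each treated group, had a lower mean than control.

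These counts also turned on single libraries. For EV+ the count was 0 without EV+ replicate 2 or EV+ replicate 3, 2 without control replicate 1 or EV- replicate 2, and 5 without EV+ replicate 1. The 2 genes called without control replicate 1 were Gbp2 and Samhd1, both higher in EV+. Without control replicate 2, Rsad2 was called and Ifi27l2b was not. The median was -0.04 without control replicate 1, -0.37 without control replicate 2 and -0.08 without EV+ replicate 2. For EV- the count was 0 without control replicate 1 or EV- replicate 2, 2 without control replicate 2, either GN library, EV- replicate 1 or EV- replicate 3, and 7 without EV+ replicate 2. The median was -0.11 without control replicate 1, -0.46 without control replicate 2 and -0.18 without EV- replicate 2.

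EV+ and EV- were each set against GN, in comparisons that share the 2 GN libraries. Both mix ASC treatment with the selection of cells by dye, and these cannot be told apart here. In EV+, 37 of 43 genes had higher means than in GN, against 47.2% of all genes, with a median of 0.16. None passed limma's test, where 0.122% of all genes did, and 3 had an unadjusted p under 0.05, all higher (3.99% of all genes were). The tests of edgeR and DESeq2 also called 0 genes, with 2 to 4 genes at an unadjusted p under 0.05. Limma with the block called 1 gene, Ifit3, with 12 genes at an unadjusted p under 0.05, all higher. The share of all genes at this p was not taken for the block, which called 30 of all genes against 11 without it. In 10 genes all EV+ libraries lay above both GN libraries, against 11.2% of all genes. In EV-, 30 genes had higher means (50.1% of all genes), with a median of 0.06. Again 0 were called by limma (0.378% of all genes) or by the tests of edgeR and DESeq2, with 1 gene at an unadjusted p under 0.05 by limma (7.85% of all genes) and 1 or 2 by the others. With the block, 1 gene, again Ifit3, was called. EV- did not overlap GN in 5 higher genes (12.6% of all genes) and 3 lower ones (12.8%).

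The lowest adjusted p against GN was that of Trim25, the ubiquitin ligase that activates RIG-I. Trim25 was at 158 and 126 CPM in control, 132 and 113 in GN, 146, 167 and 157 in EV+ and 147, 143 and 153 in EV-. All 6 treated libraries lay above both GN libraries, whereas 1 control library lay in the range of GN and the other in that of EV+. The difference was 0.35 ± 0.104 for EV+ (adjusted p = 0.465, limma) and 0.27 ± 0.104 for EV- (adjusted p = 0.534, limma). Ifit3 had the largest EV+ difference among genes with a mean of at least 5 CPM, 0.38 ± 0.203 (adjusted p = 0.785, limma), and its EV- difference was 0.36 ± 0.203 (adjusted p = 0.721, limma). With the block the adjusted p-values of Ifit3 were 0.0669 and 0.0615 (limma). GN replicate 1 lay within the range of both treated groups. Mx1 differed by 0.31 ± 0.244 in EV+ (adjusted p = 0.876, limma), again with overlap. By role, the median EV+ difference from GN was between 0.07 for the other genes and 0.23 for the oligoadenylate synthetases, positive in all 7 groups.

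The EV+ median was 0.06 without GN replicate 2, 0.07 without EV+ replicate 1, 0.23 without EV+ replicate 2 and 0.24 without GN replicate 1. The EV- median was -0.04 without GN replicate 2, -0.02 without EV- replicate 1, 0.14 without GN replicate 1 and 0.15 without EV- replicate 2, so its sign rested on single libraries.

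**Figure D4:**
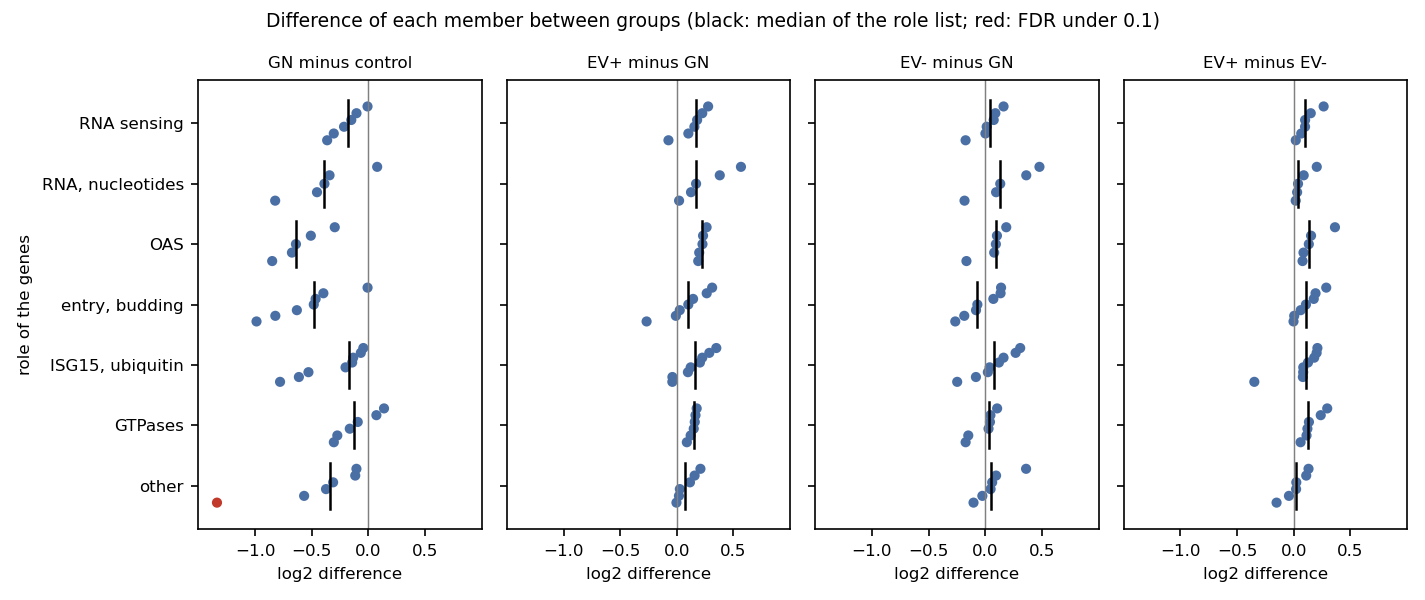
Difference on the log2 scale of each of the 43 genes in 4 comparisons, by role, with the median of each role group (black line) and genes called at an FDR under 0.1 in red. Most points lie under 0 for GN minus control, where Ifi27l2b is the only red point, and most lie above 0, within smaller ranges, for EV+ minus GN and EV+ minus EV-.

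EV+ and EV- macrophages of treated rats differ in whether they carried DiD. EV+ had the higher mean in 39 of 43 genes, against 47.3% of all genes, but the differences were small, with a median of 0.10. None was called by limma, where 0.0222% of all genes were, nor by edgeR's quasi-likelihood and likelihood-ratio tests or DESeq2. An unadjusted p under 0.05 was reached by 2 genes in each of these 4 tests, 1 higher and 1 lower, against 4.57% of all genes by limma. With same-numbered libraries taken as pairs by the block, 0 were called as well, but 6 genes had an unadjusted p under 0.05, all higher. In the 6 EV+ and EV- libraries alone the block gave 13 such genes, of which 12 were higher. The 10 NK and T cell genes above all other libraries in EV- were also above EV+, and their part in these differences was not tested. The EV+ libraries lay above the EV- libraries without overlap in 2 genes (4.25% of all genes) and below them in 1 (4.65%). The median was 0.02 without EV+ replicate 1 or EV- replicate 2, 0.18 without EV- replicate 1 and 0.21 without EV+ replicate 2.

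The 3 genes without overlap, named after their values were seen, were Gbp4, Parp9 and Uba7. Gbp4 was at 116 and 89.9 CPM in control, 115 and 109.9 in GN, 133, 108 and 119 in EV+ and 106, 104 and 93.8 in EV-, a difference between EV+ and EV- of 0.24 ± 0.103. Parp9, which acts with the ubiquitin ligase Dtx3l in ADP-ribose signalling, was at 205 and 147 CPM in control, 159.5 and 155 in GN, 176, 187 and 181 in EV+ and 175, 164 and 174 in EV-. The lowest EV+ and the highest EV- library of Parp9 were nearly equal. Uba7, the enzyme that activates ISG15 for conjugation, was the gene that lay lower in EV+, at 25.0, 18.8 and 25.1 CPM against 27.2, 33.7 and 27.2 in EV-, with 31.3 and 21.2 in control and 23.0 and 23.9 in GN. Its difference was -0.35 ± 0.158, which did not pass limma, and the control libraries overlapped both groups. The other large differences between EV+ and EV- were 0.36 ± 0.222 for Oas2 and 0.30 ± 0.174 for Gbp5, a GTPase that promotes inflammasome assembly. Gbp5 was at 109 and 71.6 CPM in control, 75.2 and 82.3 in GN, 92.4, 83.1 and 82.1 in EV+ and 90.8, 51.9 and 71.6 in EV-, with the EV- libraries spread from below the EV+ range into it.

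Within libraries of the same replicate number, EV+ was higher than EV- in 31 of 43 genes for replicate 1, 34 for replicate 2 and 35 for replicate 3, with medians of 0.07, 0.11 and 0.11. Of all genes, 49.1%, 48.3% and 50.1% were higher in EV+ in the same pairs. In 20 genes EV+ was higher in all 3 pairs, which held for 13.7% of all genes, and in 1, Uba7, it was lower in all 3, against 14.3%. The 20 included Mx1, Mx2, Oasl, Rsad2, Isg15, Usp18, Dhx58 and all 3 guanylate-binding proteins. These genes were not independent of each other, since most of them rose and fell together between libraries.

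Library by library, the genes moved as a block. The median deviation of the 43 genes from their own means was 0.38 and 0.06 in the control libraries, -0.04 and -0.20 in GN, 0.20, -0.22 and 0.04 in EV+, and 0.11, -0.29 and -0.04 in EV-. Replicate 1 was thus the highest and replicate 2 the lowest library of every group. Replicate 1 exceeded replicate 2 in 41 of 43 genes in control, 37 in GN, 36 in EV+ and 39 in EV-, and in all 4 groups in 30 genes (69.8%), against 7.19% of all genes. The order of replicates 1, 3 and 2, from high to low, occurred in both EV+ and EV- in 22 genes (51.2%), against 6.42% of all genes. The median deviation over all genes was at most 0.01 from 0 in every library.

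The spread within groups was accordingly wide for these genes. The pooled SD within groups had a median of 0.22 on the log2 scale over the 41 genes with a mean of at least 5 CPM, against 0.14 over 7193 genes at this level. The difference between the medians of the 2 control libraries, 0.38 and 0.06, was about as wide as the median difference between GN and control. Samhd1, Trim25, Parp9, Adar, Ifih1, Parp14 and Trim21 departed from the pattern, with EV+ replicate 2 above EV+ replicate 1. The heat shock and immediate early list was highest in replicate 1 of each group. The NK and T cell sum was far higher in EV- replicate 1 than elsewhere, and 10 of its 20 genes were higher in all 3 EV- libraries than in the other 7. The genes listed for plasmacytoid dendritic cells, a known source of interferon, summed to 42.4 to 53.2 CPM over 3 measured genes. Runx2, at 33.4 to 45.2 CPM, made up most of this sum, with Tcf4 at 4.81 to 7.06 and Spib at 1.35 to 4.01. Siglech, Clec4c and Klk1 of the same list were not among the genes measured, so the sum does not show that such cells were present. The part of these lists in the result was not tested.

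**Figure D5:**
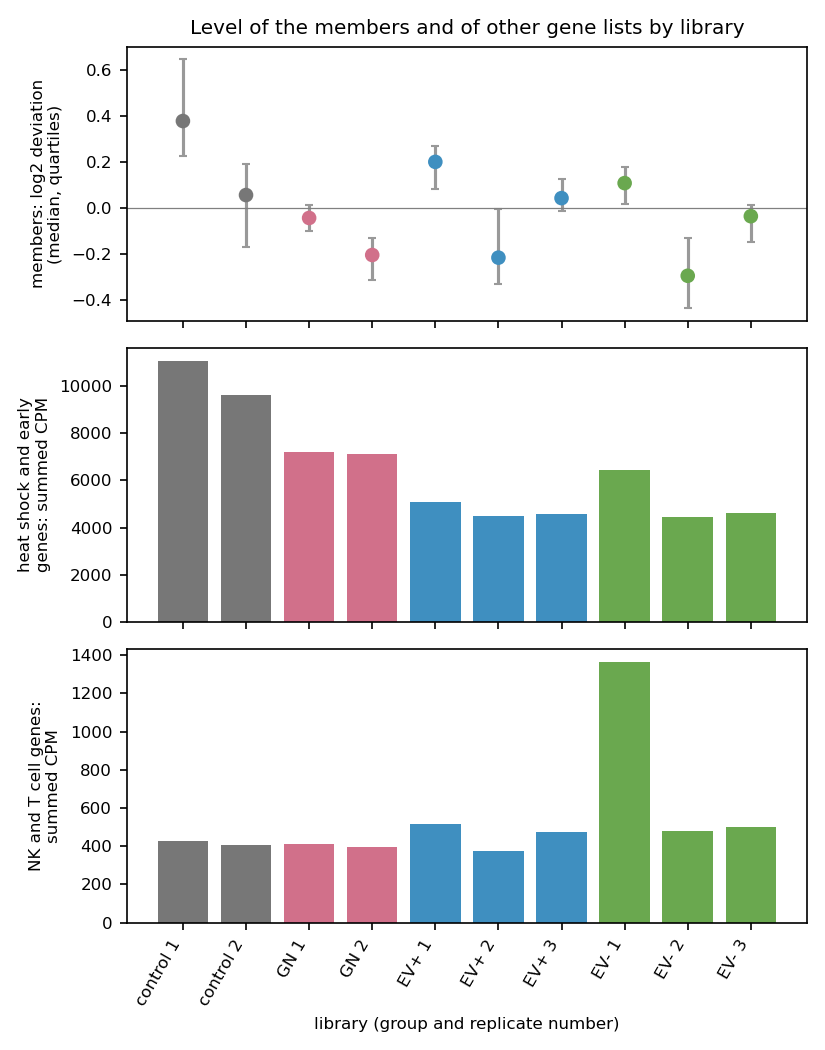
Top, the median and quartiles over the 43 genes of the deviation from the mean of each gene, by library, on the log2 scale. Middle and bottom, the summed CPM of 13 heat shock and immediate early genes and of 20 NK and T cell genes. Replicate 1 is the highest and replicate 2 the lowest library of each group at the top, and the NK and T cell sum stands out in EV- replicate 1 (1365 CPM).

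Among genes that act before the effectors, 4 of 14 listed interferon ligands and receptor chains were in the table (Ifnar1, Ifngr1, Ifngr2 and Il10rb), and none was called in any comparison. None of 9 kinases and inhibitors, such as Jak1 and Socs1, was called either. Of 11 STAT and IRF factors, 10 had lower means in GN than in control, with a median of -0.17, and none was called there. Irf3, which acts below the cytosolic sensors, was the one factor called anywhere, at 71.1 and 58.5 CPM in control against 47.2, 49.9 and 50.2 in EV+ (difference -0.39 ± 0.109, adjusted p = 0.0927, limma).

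Of 12 sensors and adaptors, limma called 2 higher and 1 lower in GN, where 1.75% of all genes were called. By mean, 3 of the 12 were higher and 9 lower. Ikbke, a kinase that activates IRF factors, rose from 80.4 and 60.1 CPM in control to 121 and 109.8 in GN, and stood at 100.3, 125 and 106 in EV+ and 116, 110.4 and 107 in EV-. All 8 libraries of nephritic rats lay above control, and the GN difference was 0.72 ± 0.134 (adjusted p = 0.0179, limma). Tmem173, which encodes the DNA-sensing adaptor STING, rose from 3.04 and 2.52 CPM to 6.90 and 5.91 in GN, 6.99, 7.58 and 8.07 in EV+ and 6.71, 5.40 and 4.40 in EV-, with a GN difference of 0.97 ± 0.223 (adjusted p = 0.061, limma). Tlr9, the receptor of unmethylated DNA, fell from 43.6 and 49.8 CPM to 27.8 and 25.3 in GN, with 26.4, 35.3 and 33.5 in EV+ and 28.6, 36.0 and 25.6 in EV-, a GN difference of -0.79 ± 0.173 (adjusted p = 0.0452, limma). Each of these 3 genes was also called, in the same direction, in EV+ and in EV- against the same controls.

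Of 5 interferon-inducible chemokines, Cxcl10 and Ccl2 were called. Limma called 3.63% of all genes in EV+ minus control, 2.84% in EV- minus control and 0.378% in EV- minus GN. Cxcl10, a T cell attractant, was at 32.1 and 21.0 CPM in control, 23.3 and 23.7 in GN, 8.24, 14.0 and 17.2 in EV+ and 11.9, 7.65 and 12.6 in EV-. It fell by 0.99 ± 0.271 in EV+ (adjusted p = 0.0832, limma) and by 1.23 ± 0.271 in EV- (adjusted p = 0.0357, limma) against control, and its GN libraries lay within the range of control. Ccl2, a monocyte attractant, was at 33.7 and 36.8 CPM in control, 37.9 and 40.9 in GN, 15.9, 26.8 and 26.6 in EV+ and 15.4, 23.1 and 20.3 in EV-. It fell in EV- by 0.83 ± 0.207 against control (adjusted p = 0.0658, limma) and by 0.99 ± 0.207 against GN (adjusted p = 0.0833, limma). In EV+ it differed by -0.62 from control and by -0.78 from GN, and neither was called. Cxcl9 and Cxcl11 differed by -1.01 and -1.04 between EV- and control, without a call, and were near the detection floor. Cxcl9 was at 1.89 and 1.90 CPM in control and 0.78, 0.10 and 0.51 in EV-. Cxcl11 was at 4.01 and 1.61 CPM in control and 1.21, 0.25 and 0.97 in EV-. Ccl5, also on the NK and T cell list, went the other way, at 126, 14.8 and 9.07 CPM in EV- and at most 5.78 elsewhere, without a call. In Cxcl10 and Ccl2 the GN libraries did not lie under both control libraries, whereas in 24 of the 43 effector genes they did. That these patterns differ was not tested.

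Over the 4 groups together, 0 of the 43 genes passed limma's F test at an FDR under 0.1, where 2.57% of all genes did, with 15 at an unadjusted p under 0.05 (12.0% of all genes) and a lowest adjusted p of 0.132. The quasi-likelihood test also called 0, whereas the likelihood-ratio test called 8, DESeq2 4 and limma with the block 13.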

How the data were processed

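RNA-seq libraries of splenic M2 macrophages were prepared by the authors with the SMART-Seq v4 and Nextera XT kits, which do not mark strand, so genes that overlap on opposite strands cannot be told apart. Per the labels and the study's methods, reads were aligned to rn6 with STAR (version 2.5.3) and counted on RefSeq genes with HTSeq (version 0.6.0). Genes whose maximum CPM was under 1 were removed, and TMM normalization in edgeR followed. The deposited table thus holds a normalized signal, TMM-normalized CPM, of 9003 genes (smallest row maximum 1.01 CPM). Whole read counts were recovered from the deposited values for all of them (100% within 0.02 reads), between 19270515 and 26617093 per library. Of the symbols, 18 had turned into dates. No library was a copy of another (chi-square 13.4 to 45.4 per degree of freedom between replicates). No column was left out.

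The groups follow the sample labels. The test was limma (version 3.58.1, R 4.3.3) with an intensity trend on log2(CPM + 1), in 1 fit of all 10 libraries by group, with Benjamini-Hochberg adjustment over 9003 genes and an FDR under 0.1. Differences on this scale understate the change of low genes. Alternatives were edgeR (version 4.0.16, quasi-likelihood and likelihood-ratio tests) and DESeq2 (version 1.42.0) on the recovered reads, RLE size factors, a pseudocount of 0.1, a filter of 1 CPM in 2 libraries, no trend, an FDR under 0.05, the replicate number as a block, and each library left out. A block in the 6 EV+ and EV- libraries alone was added after the data were seen.

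The genes, role groups and lists were chosen with earlier results of these data known. Values in every library are given for genes called in any of 6 comparisons, for the 3 largest differences (mean of at least 5 CPM) in GN minus control, EV+ minus EV- and EV+ minus GN, and for the gene of highest mean CPM in each of the 7 role groups, 16 genes in all. Pathway genes are named where called. Marker lists of B and plasma cells (184 to 243 CPM summed), neutrophils (550 to 745 CPM) and dendritic cells (29.4 to 42.7 CPM) were measured too, as were 1 erythroid gene (at most 5.25 CPM) and 14 macrophage genes (25958 to 32206 CPM).

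The pairing of replicate numbers was checked on residuals across all genes. Same-numbered EV+ and EV- libraries correlated at 0.203, 0.295 and 0.122, and each library correlated best with its own number, so that these numbers were taken as pairs. Neither labels nor methods state a shared animal. Control and GN libraries of the same number correlated at 0.0878, and those of different numbers at -0.0878. The residuals were taken from group means, so the residuals of a group are tied to each other. With 2 libraries a group, only these 2 mirrored values were possible. The pairs were also read from the same values to which the block was then fitted. Genes are not independent replicates in these correlations.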

Additional observations from a re-analysis of the deposited data

How the results depend on the processing

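The medians over the 43 genes stayed within the spread between replicates under every alternative, but this spread was about as wide as the GN difference itself. Leaving out control replicate 1 moved the median from -0.31 to -0.15 for GN minus control and from -0.17 to -0.04 for EV+ minus control. The median of EV- minus GN (main value 0.06) changed sign when a single library was left out. Without control replicate 1, the called genes of EV+ minus control turned from 1 lower to 2 higher, and its genes at an unadjusted p under 0.05 from 2 higher and 12 lower to 6 higher and 2 lower. Those of EV- minus control turned from 1 higher and 20 lower to 4 higher and 3 lower, and those of GN minus control from 0 and 18 to 2 and 3. Counts of called genes moved. For GN minus control, with 1 gene called, the count was 0 without the intensity trend, 8 by edgeR's likelihood-ratio test, 7 by DESeq2, 15 with the replicate block and 0 at an FDR under 0.05. For EV+ minus control, also with 1, the counts under the same 5 settings were 0, 4, 4, 14 and 0. For EV- minus control, with 4, the count was 0 without the trend, 7 by the likelihood-ratio test, 15 with the block and 0 at an FDR under 0.05. Over the 4 groups together, with 0, it was 8 by the likelihood-ratio test, 4 by DESeq2 and 13 with the block. The block also gave 1 gene, Ifit3, in EV+ minus GN (adjusted p = 0.0669, limma) and in EV- minus GN (adjusted p = 0.0615, limma). In EV+ minus EV-, whose libraries are taken as pairs, the block called 0 genes (lowest adjusted p 0.864, 6 genes at an unadjusted p under 0.05, all higher), and in the 6 libraries alone it called 0 as well (lowest adjusted p 0.24, 13 genes at an unadjusted p under 0.05, 12 of them higher). Outside these 6 libraries the groups share only a replicate number, with 2 pairs of control and GN, and the cause of the larger counts was not tested. For the block, the share of all genes at an unadjusted p under 0.05 was not taken.

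With a single library left out, the count ranged from 0 to 6 for GN minus control, 0 to 5 for EV+ minus control, 0 to 7 for EV- minus control and 0 to 2 over the 4 groups, and stayed at 0 in the 3 other comparisons. The medians ranged from -0.48 to -0.15 for GN minus control, -0.37 to -0.04 for EV+ minus control, -0.46 to -0.11 for EV- minus control, 0.06 to 0.24 for EV+ minus GN, -0.04 to 0.15 for EV- minus GN and 0.02 to 0.21 for EV+ minus EV-. Where control or GN was left with 1 library, that library was assumed to vary like those of the other groups. Counts over all genes moved too. Those of limma, limma without the trend, DESeq2 and the likelihood-ratio test were 158, 60, 294 and 292 for GN minus control, 327, 186, 540 and 516 for EV+ minus control, 256, 94, 474 and 444 for EV- minus control, 11, 0, 41 and 43 for EV+ minus GN, 34, 6, 113 and 126 for EV- minus GN, 2, 0, 34 and 57 for EV+ minus EV-, and 231, 93, 543 and 616 over the 4 groups. With the block they were 205 for GN minus control, 379 for EV+ minus control, 290 for EV- minus control and 295 over the 4 groups. They were 30 for EV+ minus GN, 53 for EV- minus GN and 5 for EV+ minus EV-, or 49 for the last in its 6 libraries alone. Of the values of single genes under the alternatives, 207 kept their side of the threshold, 10 passed it and 38 no longer did. Ifit1 and Ifitm3 lay near 1 CPM, where depth limits what can be seen.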
